A study of Mus musculus with 9 samples.

Results

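Itga8, Itgav and Npnt encode 2 integrin alpha subunits and a secreted ligand, and they were followed in whole aortae of male C57BL/6J mice aged 8 to 10 weeks. The members were the 3 probes ASMM10P004006 (Itga8), ASMM10P023110 (Itgav) and ASMM10P000458 (Npnt), out of 60834 probes tested on each array. In every mouse an osmotic pump was implanted under ketamine and xylazine, and both were followed by 2 weeks of treatment. The Vehicle group had PBS in the pump and received vehicle, the Ang II group had Ang II in the pump at 1 mg/kg/day and received vehicle, and the mice of the Ang II + MK-626 group were given the same Ang II dose and oral MK-626 at 3 mg/kg/day. Ang II, or angiotensin II, is a peptide hormone that raises blood pressure, and MK-626 inhibits DPP-4, the enzyme that degrades the gut hormone GLP-1. Each group had 3 aorta samples with 1 array each, and there was no group with MK-626 and no Ang II. The treatment labels of the Vehicle and Ang II samples describe berberine in place of MK-626, although neither group is named for that drug, and the groups were taken from the sample titles. The records of the Ang II + MK-626 samples are thus of another set than those of both other groups, and no source used here says whether the arrays of both sets were run together. In each comparison with the Ang II + MK-626 group, the return with MK-626 included, the set of records and the group cannot be told apart.

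The study picked these 3 mRNAs partly because, on these same arrays, they were lower with Ang II and higher again with MK-626. Their values in both of those comparisons are therefore a description and carry no test here. For each mRNA exactly 1 probe held the per-array values that the study printed for it, within 0.0001 on the log2 scale on every array. On at least 1 array every other probe was off by 0.289 or more. In the RefSeq table the accessions of 3 of 3 mRNAs carried the symbols that the study uses. Itga8 and Itgav lie on chromosome 2 and Npnt on chromosome 3. The tables used here do not pair other probes with genes, so the other integrin subunits and ligands were not read. The study also printed per-array values of Tnni3 and Mylk3, which are heart muscle markers. It reports both as higher with Ang II and lower again with MK-626. Their values were not read here, and the labelled tissue was not checked against cell type markers. Whether all samples held the same tissue was not tested.

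Integrins are membrane receptors that join an alpha and a beta subunit and tie cells to the extracellular matrix. The product of Itga8 pairs with the beta-1 subunit and is known from smooth muscle and other mesenchymal cells. The product of Itgav pairs with several beta subunits, and its receptors bind fibronectin and vitronectin and can release TGF-beta from its latent form. Npnt encodes nephronectin, a matrix protein of basement membranes that carries an RGD sequence and is a strong ligand of the integrin that contains the Itga8 product. An array of a whole aorta reads smooth muscle, endothelium and outer layer together, so fewer cells of one type and less RNA per cell cannot be told apart.

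The promoter sequences are shown because the 3 genes were measured as a set that moved together, and they show what lies just before each start. They come from RefSeq (build GRCm38.p6), where 3 of 3 members had an entry, and give the 250 bases before the start on the gene's own strand, 5′ to 3′. The Itga8 stretch is chr2:12301945-12302194 on the minus strand, that of Itgav is chr2:83724147-83724396 on the plus strand, and that of Npnt is chr3:132950292-132950541 on the minus strand. Npnt had 2 entries, of which the first is shown. Capitals mark the GC box GGGCGG on either strand.
Itga8: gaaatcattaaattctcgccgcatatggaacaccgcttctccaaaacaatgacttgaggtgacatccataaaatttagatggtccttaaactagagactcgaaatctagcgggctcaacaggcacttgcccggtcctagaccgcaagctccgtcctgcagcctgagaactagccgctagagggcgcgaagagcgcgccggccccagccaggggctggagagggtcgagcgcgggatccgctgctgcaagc
Itgav: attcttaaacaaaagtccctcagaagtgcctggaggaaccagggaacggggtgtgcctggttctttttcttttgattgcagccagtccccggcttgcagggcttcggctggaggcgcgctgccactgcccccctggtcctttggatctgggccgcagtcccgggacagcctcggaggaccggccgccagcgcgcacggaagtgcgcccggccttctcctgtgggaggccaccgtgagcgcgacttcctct
Npnt: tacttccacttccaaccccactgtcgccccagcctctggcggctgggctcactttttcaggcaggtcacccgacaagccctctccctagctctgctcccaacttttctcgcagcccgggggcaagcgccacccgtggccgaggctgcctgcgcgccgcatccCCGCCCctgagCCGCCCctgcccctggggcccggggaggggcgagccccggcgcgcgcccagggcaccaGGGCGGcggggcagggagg

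Short motifs were searched on both strands of these stretches. The GC box, to which Sp family factors can bind, was found 3 times before Npnt and in neither of the integrin genes, and 32.7% of 32817 stretches of the same length before RefSeq starts held it. The other motifs were the CArG box of serum response factor, the TATA box TATAAA, the MCAT motif CATTCC and the AP-1 motif TGANTCA. None of these was found before Itga8, Itgav or Npnt, and they occurred in 1.47%, 12.4%, 12.6% and 6.75% of all stretches. The 3 GC boxes did not overlap one another. The Npnt stretch was the richest in G and C of the 3, at 74.0%, against 64.4% for Itgav, 56.4% for Itga8 and a median of 52.4% over all stretches. The ratio of observed to expected CpG was 0.906 for Itga8, 0.694 for Itgav and 0.627 for Npnt, all above the median of 0.373.

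The signal of Itga8 was the lowest on the Ang II arrays, and on the Ang II + MK-626 arrays it was nearer to the Vehicle level but below it. In the authors' quantile-normalized log2 values, where a difference of 1 is a 2-fold difference in signal, the 3 Vehicle arrays had 10.95, 10.85 and 11.09. The Ang II arrays had 8.74, 8.29 and 9.11. The Ang II + MK-626 arrays had 10.81, 10.62 and 10.28. All 3 Ang II arrays were thus below every other array, and the highest Ang II + MK-626 array was just under the lowest Vehicle array.

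Itgav also had its lowest values on the Ang II arrays. Its Vehicle arrays had log2 values of 7.37, 7.22 and 7.54. Its Ang II arrays had 5.63, 5.60 and 5.86. With MK-626 the values were 7.39, 7.20 and 7.20, so that the Ang II + MK-626 and Vehicle arrays overlapped while the Ang II arrays stood apart from both.

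Npnt, the ligand, also had its lowest values with Ang II. The Vehicle arrays had log2 values of 8.63, 8.38 and 8.87. The Ang II arrays had 6.60, 6.39 and 6.96. The Ang II + MK-626 arrays had 8.75, 8.26 and 8.06 and overlapped with Vehicle, with 1 array inside the Vehicle range and the other two below it.

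**Figure D1:**
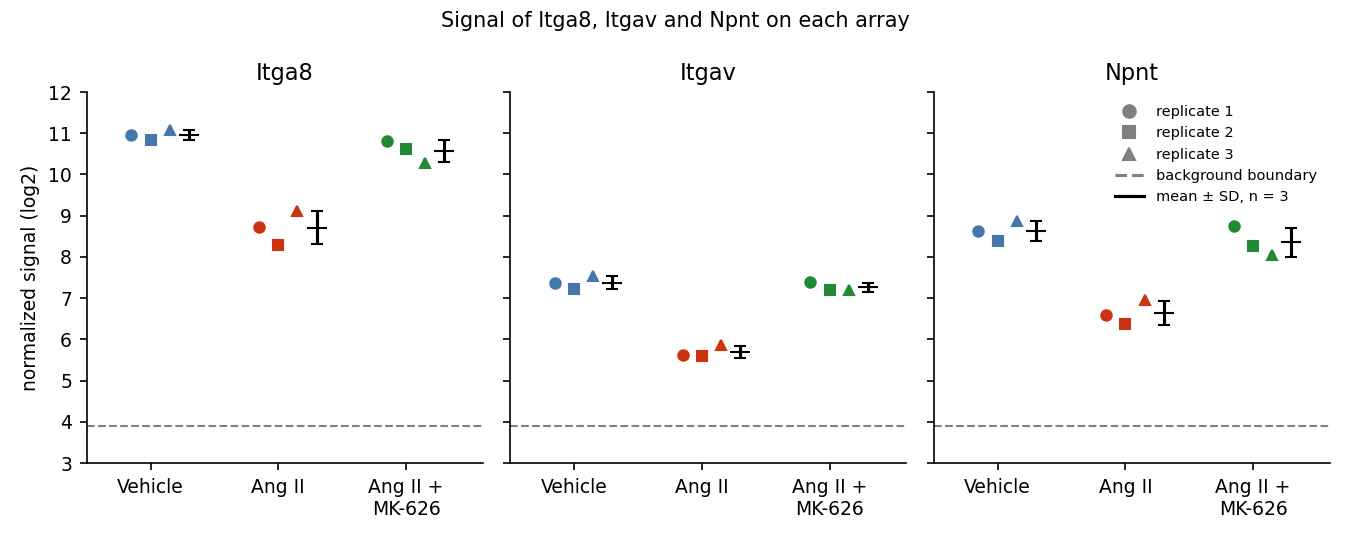
Normalized signal on the log2 scale (vertical axis) of Itga8, Itgav and Npnt on each of the 9 arrays, with a point per array, the mean ± SD of 3 arrays as a black bar and the background boundary of 3.9 as a dashed line. At each of the 3 members every Ang II array is below every Vehicle and every Ang II + MK-626 array, and all points are above the boundary.

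All values of the 3 members lay above the background boundary, the log2 value of 3.9, where 50% of probes or more passed the scanner software's background test in the MK-626 group. The value nearest to it was that of Itgav in Ang II replicate 2, at 1.70 above the boundary on the log2 scale. The lowest Npnt value was 2.49 and the lowest Itga8 value 4.39 above it. The background flags of the Vehicle and Ang II arrays were not analysed here.

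Scanner files of the MK-626 group showed each member as 1 spot, well above background and not saturated on 3 of 3 arrays. Itga8 had a processed signal, the intensity after background subtraction, of 1697 in replicate 1, 1485 in replicate 2 and 1032 in replicate 3. Npnt had 413, 289 and 214 on the same arrays, and Itgav had 161, 140 and 116. The error that Feature Extraction, the image software, assigned to each of these signals was between 10.0% and 10.2% of it. This error covers the reading of a spot and not the difference between samples, and the intensities were not scaled between arrays, so they show how bright the spots were and are not compared between replicates. The raw median signal was 90.5 to 121 times the local background for Itga8, 15.3 to 33.0 times for Npnt and 10.4 to 13.4 times for Itgav.

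**Figure D2:**
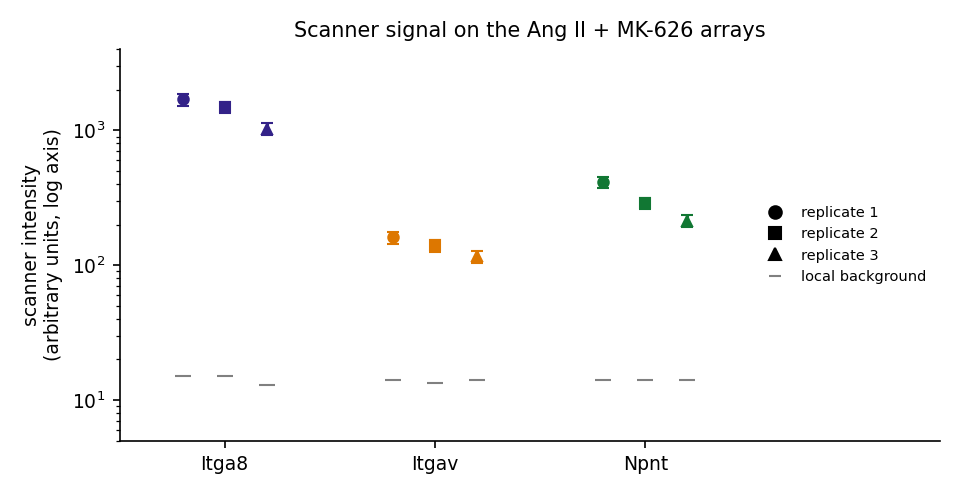
Scanner intensity (log axis, arbitrary units) of the 1 spot of each member on the 3 Ang II + MK-626 arrays, with the background-subtracted processed signal as symbols, the error assigned by the image software as bars and the local background as grey dashes. Every spot is far above the local background of 13 to 15.

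With Ang II, the mean of Itga8 was 8.71 ± 0.41 (SD, n = 3), against 10.96 ± 0.12 (SD, n = 3) in Vehicle. The Ang II signal was 21.0% of the Vehicle signal, a 4.76-fold difference. Npnt had 6.65 ± 0.29 (SD, n = 3) and 8.63 ± 0.24 (SD, n = 3), and its Ang II signal was 25.4% of Vehicle. Itgav had 5.70 ± 0.15 (SD, n = 3) and 7.38 ± 0.16 (SD, n = 3), and its Ang II signal was 31.2% of Vehicle. The ligand thus lay between both receptor subunits in the size of its difference. The gap between the highest Ang II and the lowest Vehicle array was 1.73 for Itga8, 1.42 for Npnt and 1.35 for Itgav on the log2 scale, and each of these gaps was over 3 times the largest SD of its groups.

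The arrays of the 2 groups did not overlap at 3 of 3 members, with Ang II lower, as they did at 21.9% of all probes. All 3 members differed by over 2-fold with an unadjusted limma p under 0.05, the threshold of the study, as did 3.65% of all probes in this direction. Since the members were chosen on this comparison, nothing is read from these counts. Of all probes, 254 had a more negative difference than Itga8, 351 than Npnt and 578 than Itgav. Within 0.5 of its own mean level, where probes have a like signal, Itga8 was exceeded by 0.665% of 2556 probes, Npnt by 0.805% of 4595 and Itgav by 1.09% of 5781.

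With MK-626 added to Ang II, Itga8 had a mean of 10.57 ± 0.27 (SD, n = 3), which was 3.63-fold the Ang II signal. Npnt had 8.36 ± 0.36 (SD, n = 3), 3.27-fold the Ang II signal. Itgav had 7.26 ± 0.11 (SD, n = 3), 2.96-fold the Ang II signal. The order of the members was the same as in the comparison of Ang II with Vehicle, but both comparisons share the Ang II arrays, so the order in one is not independent of that in the other. The differences were 1.86 for Itga8, 1.71 for Npnt and 1.57 for Itgav on the log2 scale, with standard errors of 0.22, 0.23 and 0.11 from limma. Itga8 and Npnt thus lay closer together than either error, whereas the step from Npnt to Itgav was larger than the error of Itgav and smaller than that of Npnt.

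Here too the arrays did not overlap at 3 of 3 members, with Ang II + MK-626 higher, as at 14.7% of all probes. All 3 were higher by over 2-fold with an unadjusted limma p under 0.05, as were 1.86% of all probes, and the choice of the members used this comparison as well. Of all probes, 156 had a larger positive difference than Itga8, 208 than Npnt and 282 than Itgav. All 3 Ang II arrays lay below all arrays of both other groups at 9.56% of all probes, and at 1.13% (690 probes) both differences were also over 2-fold.

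**Figure D3:**
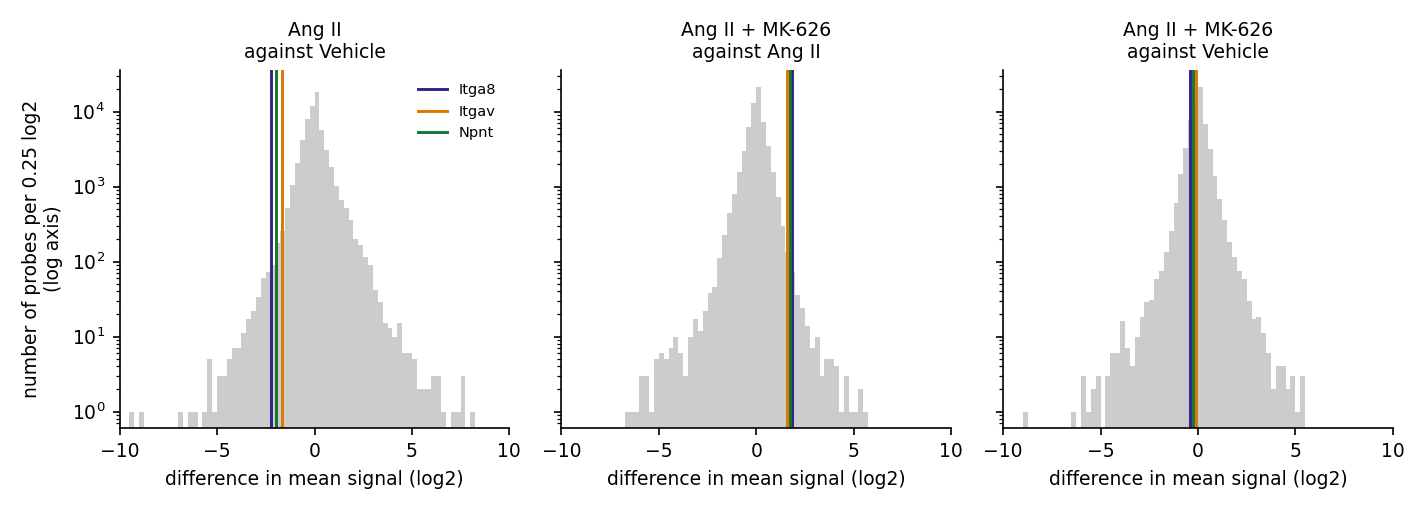
Number of probes (log axis) by the difference in mean signal between groups on the log2 scale, for the 3 comparisons over 60834 probes, with a coloured line at each member. The members lie in the lower tail for Ang II against Vehicle (-2.25 to -1.68), in the upper tail when MK-626 was added to Ang II (1.57 to 1.86) and below 0, outside the far tail, when that group is set against Vehicle (-0.39 to -0.11).

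The MK-626 group was also set against Vehicle, a comparison that did not choose the members but uses arrays that entered the choice, and this one was tested. All 3 means were somewhat lower with Ang II + MK-626 than in Vehicle, and none of the differences passed the test. Itga8 was lower by 0.39 on the log2 scale, at 76.3% of the Vehicle signal (95% interval 53.1% to 109.6%, limma, Benjamini-Hochberg adjusted p = 0.327 over all probes). Npnt had 82.9% of the Vehicle signal (95% interval 57.1% to 120.4%, adjusted p = 0.54 from limma). Itgav had 92.5% of the Vehicle signal (95% interval 77.2% to 110.8%, adjusted p = 0.62 from limma). With all 9 arrays the intervals of all 3 leave out a 2-fold difference in either direction. In 4 of 16 settings for Itga8 and 1 of 16 for Npnt, each with 1 array left out, the interval reached below a 2-fold lower signal, down to -1.11 on the log2 scale for Itga8 without Ang II + MK-626 replicate 1 and -1.01 for Npnt without Vehicle replicate 2. Equality with Vehicle is not shown.

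Without adjustment the limma p-values were 0.121 for Itga8, 0.273 for Npnt and 0.342 for Itgav, so that 0 of 3 members lay under 0.05. With the spread estimated from the 2 compared groups alone, the unadjusted limma p of Itga8 was 0.0521 and its adjusted p 0.174, and 0 of 3 members lay under 0.05 without adjustment in any of 16 settings tried. Of all probes, 14.3% had a more negative difference than Itga8, 21.0% than Npnt and 33.4% than Itgav. Over all probes, 1.91% were lower by over 2-fold with an unadjusted p under 0.05 in this comparison. The groups did not overlap at 1 of the 3 members, Itga8, where the highest Ang II + MK-626 array was 0.03 below the lowest Vehicle array on the log2 scale. The arrays did not overlap, with Ang II + MK-626 lower, at 17.7% of all probes.

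Single arrays of both groups moved these differences. Without Ang II + MK-626 replicate 1 the groups, now 2 arrays against 3, did not overlap at 3 of 3 members, with 23% of all probes in the same arrangement. The differences from Vehicle were -0.51 for Itga8, -0.47 for Npnt and -0.18 for Itgav, with adjusted p of 0.255, 0.221 and 0.426 from limma. Without Ang II + MK-626 replicate 3 they were -0.24, -0.12 and -0.08, with adjusted p of 0.638, 0.921 and 0.866 from limma. Without Vehicle replicate 2 the difference was -0.19 for Itgav and -0.39 for Npnt, and without Vehicle replicate 3 it was -0.03 and -0.15, with adjusted p between 0.387 and 0.899 from limma. Of the Ang II + MK-626 arrays, replicates 1 and 2 shared a scan and replicate 3 had another, and the part of the scan in these values was not tested.

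**Figure D4:**
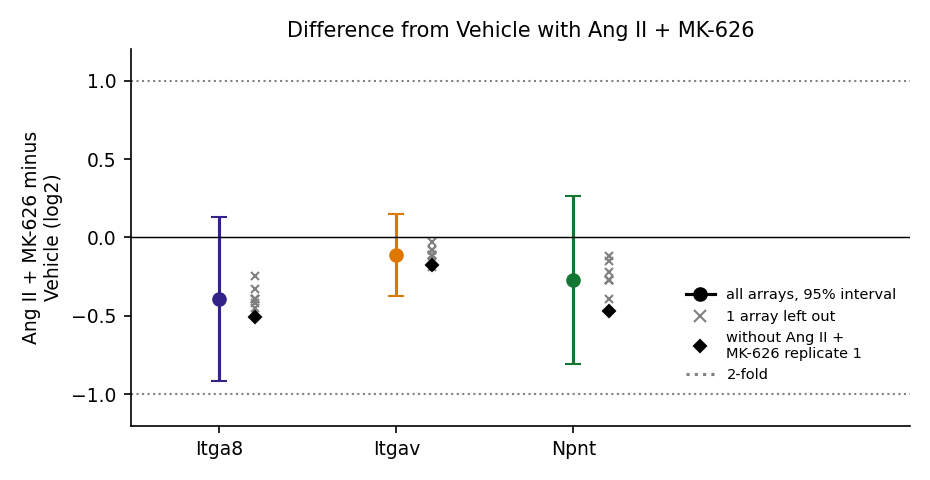
Difference in mean log2 signal between Ang II + MK-626 and Vehicle for each member, with the 95% interval from limma over all arrays, the value with 1 array left out as crosses and the value without Ang II + MK-626 replicate 1 as a diamond. With all 9 arrays the 3 intervals hold 0 and stay inside the dotted lines of a 2-fold difference, and every value with 1 array left out is below 0.

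Whether the members differed from one another in their distance to Vehicle was tested on the 3 pairs with an exact two-sided permutation test over 3 arrays against 3, in which p cannot fall below 0.1. The difference from Vehicle was 0.28 more negative for Itga8 than for Itgav on the log2 scale (standard error 0.11, exact p = 0.1, adjusted over the 3 pairs p = 0.3). It was 0.12 more negative for Itga8 than for Npnt (standard error 0.11, exact permutation p = 0.5, adjusted p = 0.5). It was 0.16 less negative for Itgav than for Npnt (standard error 0.15, exact permutation p = 0.4, adjusted p = 0.5). This test could not have told a pair apart, so its p-values do not show that the members lay equally far from Vehicle. On the log2 scale, Itga8 minus Itgav was 3.09 to 3.42 with MK-626 and 3.55 to 3.63 in Vehicle. That these ranges did not overlap is the same fact as the exact permutation p of 0.1 and adds nothing to it. The ranges of the other pairs overlapped.

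As a share of the Ang II difference, the return with MK-626 was 82.7% for Itga8, 86.3% for Npnt and 93.3% for Itgav, on a scale where the Ang II mean is none and the Vehicle mean is all of it. Array by array, Itga8 returned by 93.3%, 84.9% and 69.7%. Npnt returned by 106.4%, 81.3% and 71.2%, and Itgav by 101.0%, 89.7% and 89.2%. Replicate 1 was thus the nearest to Vehicle or past it at each member, and replicate 3 the farthest. Over the 690 probes with the same arrangement and both differences over 2-fold, the median return was 88.2% and the quartiles were 75.2% and 102.6%, and all 3 members lay between these quartiles.

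The spread between samples differed among the members. In the Ang II group, Itga8 had an SD of 0.41 on the log2 scale, larger than that of 94.7% of 2556 probes with a like mean level. Its SD was 0.12 in Vehicle and 0.27 in Ang II + MK-626, larger than those of 68.2% and 83.9% of the same probes. Npnt had an SD of 0.24 in Vehicle and 0.29 in Ang II, and with MK-626 its SD was 0.36, above 90.6%, 80.7% and 91.1% of 4595 probes of like level. Itgav had an SD of 0.16 in Vehicle, 0.15 in Ang II and 0.11 with MK-626, above 72.1%, 39.7% and 33.0% of 5781 probes of like level. Its spread was thus above the median of like probes in Vehicle and below it in both Ang II groups, whereas those of Itga8 and Npnt were above it in every group.

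Within every group the arrays had the same order at all 3 members, a feature noticed after the values had been seen. In Vehicle, replicate 3 was highest and replicate 2 lowest, an order found at 40.9% of all probes. In Ang II, replicate 3 was again highest and replicate 2 lowest, as at 17.2% of all probes. In Ang II + MK-626, replicate 1 was highest and replicate 3 lowest, as at 21.4% of all probes. All these orders together occurred at 1.53% of all probes (930 probes), and at 2.18% of those above the background boundary.

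**Figure D5:**
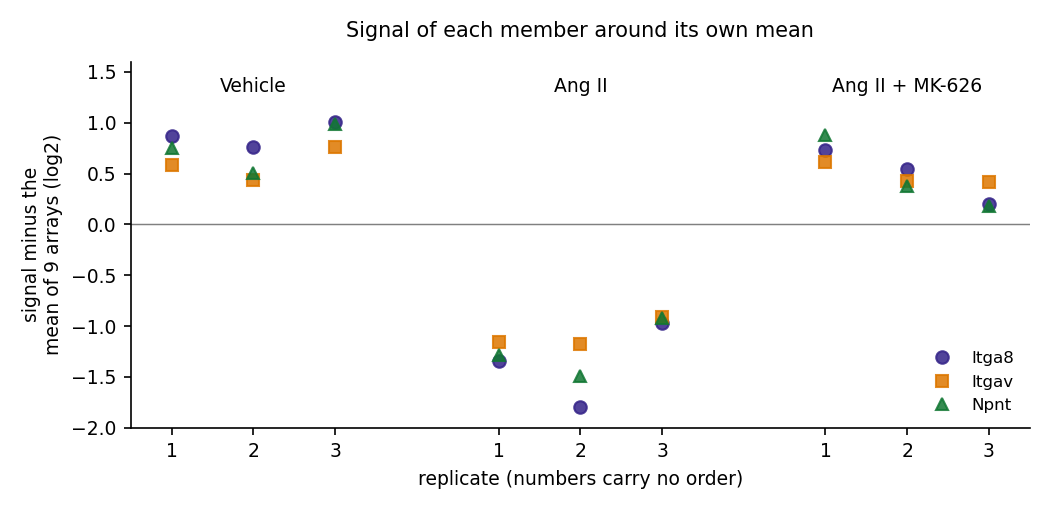
Signal of Itga8, Itgav and Npnt on each array minus the member's own mean over 9 arrays (log2), by group and replicate number. The Ang II arrays lie between -1.79 and -0.91 and all others between 0.18 and 1.01, and within each group the highest and lowest replicate are the same for the 3 members.

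The likeness of 2 probes was measured as the root mean squared distance between their log2 values over 9 arrays, each probe centred on its own mean, among the 39514 probes with a mean at or above the background boundary. Itga8 and Npnt lay 0.158 apart, and only 3 of the other 39513 probes were nearer to Itga8, where the median distance was 1.01. The same number, 3, were nearer to Npnt than Itga8 was. Itgav lay 0.189 from Npnt, with 40 probes nearer to Itgav, and 0.285 from Itga8, with 245 nearer. The distance is not scaled for the size of the differences, which for Npnt lay between those of Itga8 and Itgav, so the order of these distances repeats the order of those sizes. The members were chosen for a common arrangement of the groups, which makes small distances likely, so these ranks are a description.

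Over the 9 arrays, the nearest probe to Itga8 was ASMM10P003638 at a distance of 0.087, and the nearest to Npnt was ASMM10P050375 at 0.118. The probe nearest to Itgav over the 9 arrays lay at 0.076. The tables do not give the genes of these probes. Over the 3 group means in place of the 9 arrays, 25 probes were nearer to Itga8 than Npnt was and 71 were nearer to Itgav than Npnt was.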

How the data were processed

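RNA of whole aortae was measured on 9 one-colour Agilent arrays. The authors read the images with Agilent Feature Extraction 11.0.1.1, applied quantile normalization in GeneSpring GX and deposited log2 values of 60902 probes. Scanner files that the authors deposited, with intensity and flags per spot, were read for the 3 Ang II + MK-626 arrays. Arrays were grouped by their titles. The 68 control probes were dropped. A linear model with a mean for each group was fitted to the other 60834 with limma 3.58.1 (R 4.3.3), and p-values were adjusted over all of them by Benjamini-Hochberg. The fit was tested on simulated data. The methods of the study name one-way ANOVA, which was an alternative, as were cyclic loess, a mean-variance trend, fits on pairs of groups, the replicate number as a block, a filter on dim probes and leaving out each array. Python 3.11.15 made the tables and plots. Precision is limited by the number of arrays. No source used here says that the samples of a group came from separate animals, so p-values measure the spread between these samples, which may be technical.

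The 3 members were given with earlier results of these data known. The same holds for the planned lists of integrins, ligands, basement membrane, focal adhesion and cell type markers. The other genes of these lists were not read, since no table names their probes. For the heart muscle markers Tnni3 and Mylk3 the study printed per-array values, which were not read either. Named were the members. The nearest probe by centred profile over the 9 arrays is given for each by its distance, and by its identifier for Itga8 and Npnt, since at most 2 identifiers without a gene were printed.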

Additional observations from a re-analysis of the deposited data

How the results depend on the processing

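The alternatives were planned, apart from a replicate block for the described differences and another measure of spots above background, which were chosen after seeing the data. Ang II + MK-626 was below Vehicle at Itga8, Itgav and Npnt under all of them, and no adjusted p fell under 0.05. Adjusted p from limma and the one-way ANOVA ran from 0.174 to 0.638 for Itga8, 0.387 to 0.899 for Itgav and 0.221 to 0.921 for Npnt over 16 settings. Leaving out arrays singly, the number of members whose Ang II + MK-626 and Vehicle arrays did not overlap lay between 1 and 3, and it was 3 without Ang II + MK-626 replicate 1, the highest array of its group at each member, where 23% of all probes had this arrangement against 17.7% with all arrays. The differences of Ang II from Vehicle then lay between -2.45 and -2.04 for Itga8, -1.76 and -1.60 for Itgav and -2.14 and -1.85 for Npnt. Cyclic loess gave -2.20, -1.59 and -1.91. Array medians shifted by at most 0.11 under it, and the medians of its differences over all probes were at most 0.0149. Samples were not paired by their replicate numbers, since the correlations of deviations between arrays of the same number, across probes, ran from -0.116 to 0.044. With the replicate number as a block, the differences from Vehicle were unchanged at -0.39, -0.11 and -0.27, and the adjusted p from limma were 0.374, 0.573 and 0.535 for Itga8, Itgav and Npnt. The planned reading of mean spot signal was not run. Spot flags were read for the Ang II + MK-626 arrays alone, so whether dim signal limits the Ang II values was not tested. Having 3 arrays a group limits the precision.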
